A study of Mus musculus with 3 samples.

Results

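Levels of 10 genes for ETS transcription factors were described in 3 mouse mammary tumours. The genes were chosen by name from the 47480 gene symbols of the deposited tables and fall into 3 groups, the PEA3 group (Etv1, Etv4 and Etv5), an epithelial group (Elf3, Elf5, Ehf and Spdef) and a Ras-responsive group (Ets1, Ets2 and Elk3). All 10 were found, and 9 passed the filter on low counts. Spdef did not pass and is given by its values. The tumours were of the FVB-MMTV-Neu strain, whose mammary epithelium carries rat Neu (Erbb2) under the promoter of the mouse mammary tumour virus. Per the labels' protocols they were injected orthotopically into hosts of the same strain background, reached a diameter of 5 mm and were then left for 7 days with no treatment. The design text of the series speaks of untreated MMTV-Neu mice as the source, and the host tissue is therefore uncertain. The labels give 1 group, no normal mammary gland or other control, no age, and no word on whether the tumours came from separate donors.

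ETS factors share a DNA-binding domain that recognises a short core sequence, GGAA, and differ in the partners, kinases and tissues that direct them. The PEA3 factors Etv1, Etv4 and Etv5 act downstream of receptor tyrosine kinases and Ras. They are held down by the repressor Cic at the level of transcription and by the ubiquitin ligase subunits Cop1 and Det1 at the level of the protein, and Etv4 is known for its expression in Neu-driven mammary tumours. Elf3, Elf5, Ehf and Spdef form the epithelium-specific branch of the family, and in the mammary gland Elf5 is known as a driver of alveolar differentiation downstream of the prolactin receptor. Ets1, Ets2 and Elk3 carry phosphorylation sites for Erk kinases. Ets1 and Elk3 are also known from endothelium.

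Total estimated counts were 47449153, 11388769 and 17147394 in tumours 1, 2 and 3, which were numbered in the order of deposition. Tumour 1 stood apart from the others in many respects. It was read in lane 1 of the sequencer and the others in lane 5. Tumour and lane cannot be told apart, and values without tumour 1 are values within 1 lane. The ribosomal RNA symbol Rn18s-rs5 took 0.200% of counts in tumour 1 against 7.87% and 6.68%, and the muscle creatine kinase gene Ckm had 33 counts against 263510 and 182608. Of the 12710 genes past the filter, 22.1% were at least 2-fold above both other tumours in tumour 1 and 20.7% at least 2-fold below. The same shares were 5.43% and 7.14% in tumour 2 and 0.865% and 1.35% in tumour 3. Since there was 1 library per tumour and 1 group, a gene is said to stand above or below when it passes this 2-fold limit, and no such difference has a replicate check. Levels of 1 gene in different tumours are given as CPM, counts scaled to equal library totals after TMM normalisation, and levels of different genes as TPM, which also divides by length, computed from the estimated counts and the longest annotated transcript of each gene. Intervals in brackets are exact 95% Poisson intervals and cover counting error alone.

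In all 3 groups the leading gene of tumour 1 was another than that of tumours 2 and 3. In tumour 1 the PEA3 gene Etv5, the epithelial genes Elf5 and Ehf and the Ras-responsive genes Ets1 and Ets2 stood above both others, while Etv4, Elf3 and Elk3 stood below. Thus 5 of the 9 genes past the filter stood above and 3 below in tumour 1, beside 22.1% and 20.7% of all genes. Etv1 was highest in tumour 3, and Elk3 also stood above both others in tumour 2. No member stood below both others in tumour 2 or 3. A range of 4-fold or more over the tumours was found for 5 of the 9 (Etv4, Elf3, Elf5, Ehf and Elk3) and for 29.5% of all genes. Passing the filter needed counts in each of the 3 libraries.

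**Figure D1:**
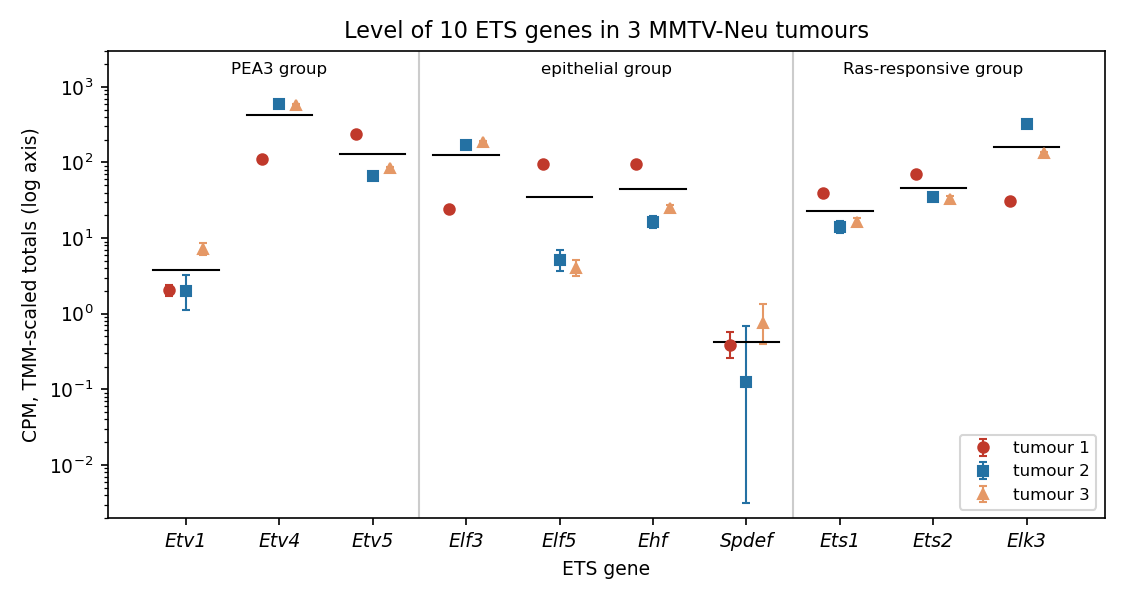
CPM on a log axis of the 10 ETS genes in tumours 1 (circles), 2 (squares) and 3 (triangles), with exact 95% Poisson intervals and the mean of the 3 tumours as a horizontal line. Tumour 1 lies above the others for Etv5, Elf5, Ehf, Ets1 and Ets2 and below them for Etv4, Elf3 and Elk3, and the Spdef value of tumour 2 rests on 1 count.

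Etv4 was the member with the highest mean level. It lies on chromosome 11 (101769742 to 101785371, minus strand, GRCm38) and had levels of 110.0, 587 and 578 CPM in the 3 tumours in order (425 ± 273, SD, n = 3). Tumours 2 and 3 were 5.34-fold and 5.25-fold above tumour 1 and 1.02-fold apart, with overlapping intervals of 571 to 604 and 566 to 590 CPM. Etv5, on chromosome 16 (22381309 to 22439719, minus strand), went the other way, at 235, 66.5 and 83.4 CPM (128 ± 92.6, SD, n = 3). Tumour 1 was the high one, 3.53-fold above tumour 2 and 2.81-fold above tumour 3, and the intervals of tumours 2 (61.0 to 72.4) and 3 (78.9 to 88.0) did not overlap. Etv1, on chromosome 12 (38779380 to 38870484, plus strand), was scarce, at 2.04, 1.99 and 7.18 CPM from 141, 16 and 113 counts. Tumours 1 and 2 overlapped within counting error, and tumour 3 was 3.52-fold and 3.61-fold above them.

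Because the levels of 2 genes of 1 library share its scaling, their ratio does not depend on how libraries were scaled. Per length, Etv4 was 14.7 times and 11.5 times the level of Etv5 in tumours 2 and 3, and 0.778 times in tumour 1. Etv5 made up 56.1% of the summed PEA3 level in tumour 1 and 6.38% and 7.97% in tumours 2 and 3. Etv4 made up 43.6%, 93.5% and 91.6%, and Etv1 0.294%, 0.115% and 0.415%. The sum of the 3 genes was 326, 342 and 426 TPM, and on the TMM-scaled totals it was 347, 656 and 668 CPM, so that its evenness between tumours depends on the scale. With the median transcript length of each gene in place of the longest, the ratio of Etv4 to Etv5 was 0.342, 6.45 and 5.06.

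The promoter table of RefSeq (GRCm38.p6) held windows for 7 of the 10 members, 10 windows in all, and none for Etv4, Ehf and Ets1. Each was searched in the 250 bases before the start site, on both strands, for an ETS core, the longer ETS word CCGGAAGT, the AP-1 word TGANTCA, the Stat word TTCNNNGAA and the Cic word TGAATGAA. After the windows had been seen, the ETS core was shortened to GGAA and the Cic search was widened to 8 related words (TGAATGAA, TGAATGAG, TGAATGGA, TGAATGGG, TCAATGAA, TCAATGAG, TCAATGGA and TCAATGGG). The window before the second start site listed for Etv5 held 3 matches to these words, 242, 198 and 131 bases before the start. All 3 were TGAATGGG or its reverse complement, a word added in the widening. The first Cic word, TGAATGAA, matched in no member's window. It is printed because Etv5 and Etv4 differed in opposite directions and Cic is a known repressor of the group. It lies at chr16:22438369-22438618 on the minus strand, inside the longer Etv5 gene model and outside annotated exons, and capitals mark the matches.
Etv5: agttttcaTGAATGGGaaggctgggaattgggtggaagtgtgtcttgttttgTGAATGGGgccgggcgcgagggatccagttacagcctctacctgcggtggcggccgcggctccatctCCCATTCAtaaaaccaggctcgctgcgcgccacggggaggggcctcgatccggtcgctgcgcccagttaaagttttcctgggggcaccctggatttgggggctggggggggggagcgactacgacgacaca
Of all 32851 windows of this length, 5.86% held at least 1 of the 8 words and 0.0578% held 3 or more. CCGGAAGT was in 2.88%, TGANTCA in 6.75% and TTCNNNGAA in 7.02% of them. Because the 8 words were set after the Etv5 window was seen, their shares do not measure how unusual that window is. The windows of the other 6 members, and the first Etv5 window, held none of the 8 words. No member's window held the longer ETS, AP-1 or Stat word. A match of letters is not a bound site.

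**Figure D2:**
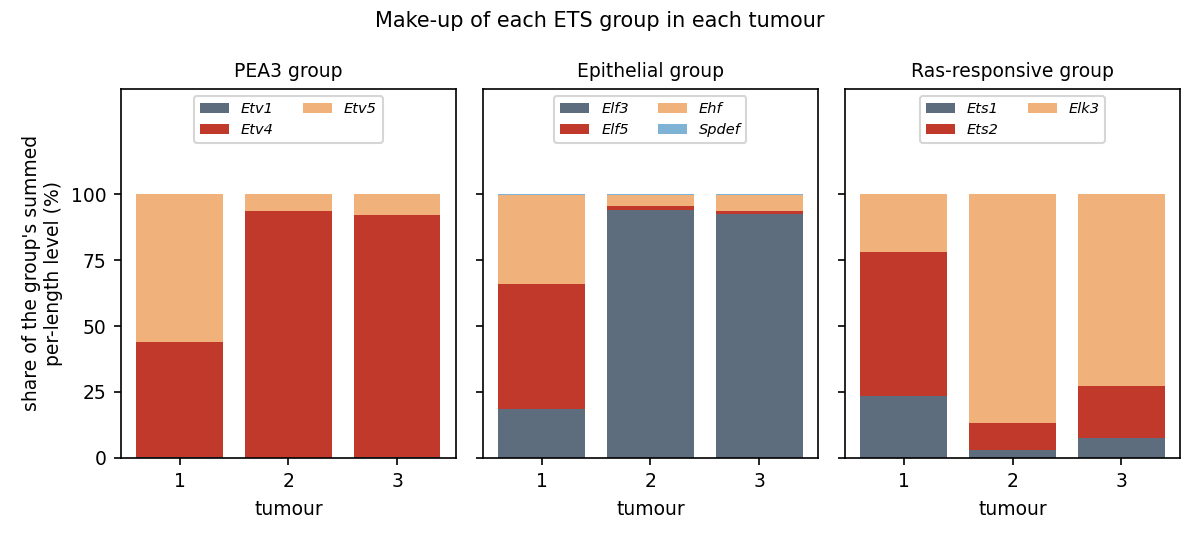
Share of each gene in the summed TPM of its group (y axis, percent) in tumours 1 to 3 (x axis) for the PEA3, epithelial and Ras-responsive groups. Etv4, Elf3 and Elk3 take the largest share in tumours 2 and 3 (72.8% or more), and Etv5, Elf5 and Ets2 in tumour 1, where with median transcript lengths Ehf (50.7%) passes Elf5 (43.5%).

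Elf3, on chromosome 1 (135253575 to 135258568, minus strand), was at 24.5, 170 and 185 CPM (127 ± 88.7, SD, n = 3). Tumours 2 and 3 were 6.95-fold and 7.57-fold above tumour 1, and their intervals of 161 to 179 and 179 to 192 CPM touched. Elf5, the alveolar factor, on chromosome 2 (103411688 to 103450989, plus strand), was at 96.6, 5.10 and 4.07 CPM from 6681, 41 and 64 counts. Tumour 1 (94.3 to 98.9) was 19.0-fold above tumour 2 (3.66 to 6.91) and 23.7-fold above tumour 3 (3.13 to 5.19), whose intervals overlapped. Elf5 had the widest range of the 9 members past the filter, with an SD of 2.54 on the log2 scale, and 98.7% of all genes had a smaller one. Ehf, which lies 108 kb before Elf5 on the opposite strand (103263433 to 103303278), was at 94.5, 16.3 and 24.9 CPM (45.2 ± 42.9, SD, n = 3). It was 5.81-fold and 3.80-fold higher in tumour 1 than in tumours 2 and 3, and tumour 3 was 1.53-fold above tumour 2. Spdef, on chromosome 17 (27714352 to 27728955, minus strand) and known from secretory epithelium, had 27, 1 and 12 counts, or 0.390, 0.124 and 0.763 CPM. Its intervals of 0.257 to 0.568, 0.00315 to 0.692 and 0.394 to 1.33 CPM all overlapped. Overlap of intervals is not a test of a difference, and none was run.

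Within the epithelial group the make-up turned over as it did among the PEA3 genes. Elf3 made up 18.6% of the summed per-length level in tumour 1 and 93.9% and 92.5% in tumours 2 and 3. Elf5 made up 47.3%, 1.81% and 1.30%, and Ehf 33.8%, 4.22% and 5.81%. Per length, Elf5 was 2.54 times the level of Elf3 in tumour 1, and Elf3 was 51.9 times and 70.9 times the level of Elf5 in tumours 2 and 3. With median transcript lengths these ratios were 7.78, 16.9 and 23.1, and Ehf at 50.7% passed Elf5 at 43.5% as the leading gene of tumour 1. The following stretches before the start sites of Elf3 and of Elf5 (second listed start) are printed because these genes traded places. They are the parts of the 250-base windows that no annotated exon covers, chr1:135258569-135258722 on the minus strand and chr2:103423818-103424061 on the plus strand, and capitals mark GGAA on either strand.
Elf3: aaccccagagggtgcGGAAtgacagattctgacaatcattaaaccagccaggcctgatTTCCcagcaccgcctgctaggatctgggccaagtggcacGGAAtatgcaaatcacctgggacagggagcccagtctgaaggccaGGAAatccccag
Elf5: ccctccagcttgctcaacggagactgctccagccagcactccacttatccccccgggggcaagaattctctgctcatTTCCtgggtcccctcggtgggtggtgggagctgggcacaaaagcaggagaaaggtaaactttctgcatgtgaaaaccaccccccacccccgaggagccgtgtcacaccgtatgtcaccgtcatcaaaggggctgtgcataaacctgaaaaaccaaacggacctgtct
The Elf3 window held 4 GGAA cores, all in the printed part, and this Elf5 window 1. Over all windows the median was 3, and 93.4% held at least 1.

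Of the Ras-responsive genes, Elk3, on chromosome 10 (93247414 to 93311135, minus strand), was at 30.5, 323 and 132 CPM (162 ± 149, SD, n = 3). The 3 intervals, 29.2 to 31.8, 311 to 336 and 126 to 138 CPM, were apart. Tumour 2 was 10.6-fold above tumour 1 and 2.45-fold above tumour 3. Elk3 overlaps the oppositely oriented gene Cdk17 by 316 of its 4550 exonic bases. Without a stated strand setting reads there cannot be told apart, and Cdk17 was at 23.4, 43.5 and 24.5 CPM. The 250 bases before the Elk3 start lie at chr10:93311160-93311409 on the minus strand and are printed because Elk3 was the one member that set tumour 2 above both others. They held 2 GGAA cores, in capitals.
Elk3: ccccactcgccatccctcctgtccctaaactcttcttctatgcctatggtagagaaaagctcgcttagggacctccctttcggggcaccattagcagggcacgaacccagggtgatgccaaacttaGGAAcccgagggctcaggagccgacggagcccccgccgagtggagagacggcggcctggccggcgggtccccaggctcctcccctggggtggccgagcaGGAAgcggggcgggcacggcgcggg
Ets1, on chromosome 9 (32636221 to 32757820, plus strand), was at 39.1, 14.0 and 16.3 CPM (23.1 ± 13.8, SD, n = 3). Tumour 1 (37.6 to 40.6) was 2.78-fold and 2.40-fold above the others, whose intervals of 11.6 to 16.9 and 14.3 to 18.4 CPM overlapped. Ets2, on chromosome 16 (95702075 to 95721051, plus strand), was at 70.1, 34.4 and 33.1 CPM (45.9 ± 20.97, SD, n = 3). It was 2.04-fold and 2.12-fold higher in tumour 1, just past the limit, and tumours 2 and 3 overlapped. Both calls were close: with DESeq2 size factors the difference of Ets2 was 0.96 on the log2 scale, under the limit, and without the trends with GC content and length that of Ets1 was 0.74. Ets1 and Ets2 kept a nearly even ratio to each other, with Ets2 per length at 2.34, 3.20 and 2.66 times the level of Ets1, an SD of 0.23 on the log2 scale (3.94, 5.39 and 4.47 times with median transcript lengths). Against Elk3 the ratio of Ets2 was 2.49 in tumour 1 and 0.115 and 0.272 in tumours 2 and 3.

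**Figure D3:**
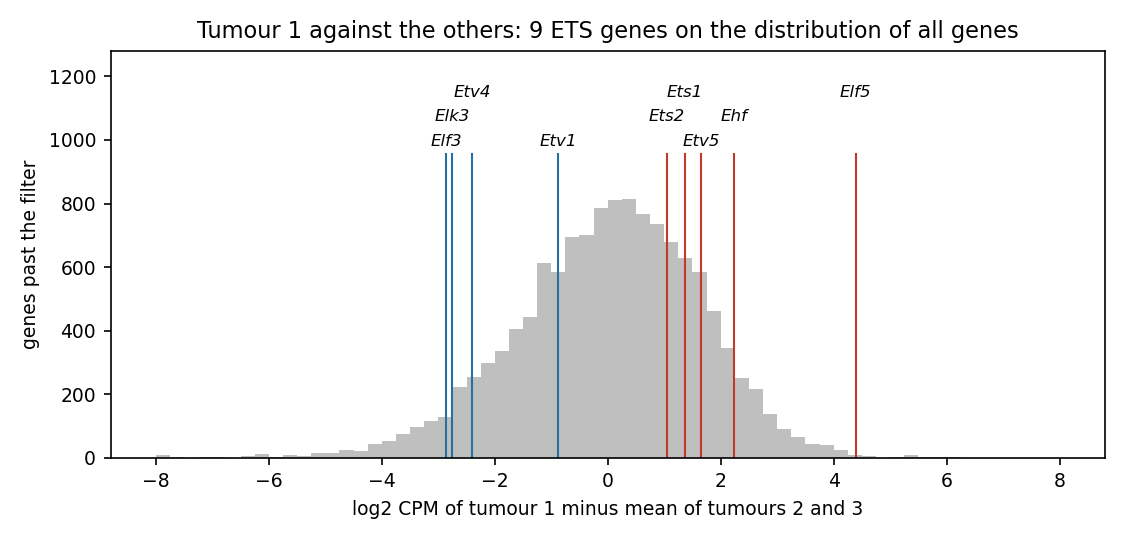
Number of genes past the filter (y axis) by log2 CPM of tumour 1 minus the mean of tumours 2 and 3 (x axis), with values beyond the axis drawn in the end bins. Vertical lines mark the 9 ETS genes past the filter: Elf3, Elk3, Etv4 and Etv1 lie below 0, and Ets2, Ets1, Etv5, Ehf and Elf5 above.

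On the log2 scale the differences of tumour 1 from the mean of the others were 4.39 for Elf5, 2.23 for Ehf, 1.66 for Etv5, 1.37 for Ets1 and 1.05 for Ets2. They were -2.86 for Elf3, -2.76 for Elk3, -2.40 for Etv4 and -0.88 for Etv1, and the median over all genes past the filter was 0.11. Of all genes, 99.8% had a lower difference than Elf5 and 4.58% a lower one than Elf3. The median SD of log2 CPM over the tumours was 1.32 for the 9 members and 0.72 for all genes past the filter. Without tumour 1, within the lane of tumours 2 and 3, these medians were 0.21 and 0.33. On the scaling of all 3 tumours, Etv1 was 3.61-fold higher in tumour 3 and Elk3 2.45-fold higher in tumour 2. These were the 2 of the 9 that passed the limit between tumours 2 and 3, and Ehf at 1.53-fold was next. Scaled without tumour 1, the log2 differences were 1.78 for Etv1 and 1.28 for Elk3. The share of all genes that pass the limit between tumours 2 and 3 was not computed. Scaling by library totals alone moved the median difference of all genes by 0.84 and the share of genes above among those apart in tumour 1 from 51.6% to 79.3%. Under it 5 members stood above and 3 below in tumour 1, beside 40.4% and 10.5% of all genes. Etv4 was then at -1.56, Elf3 at -2.01 and Elk3 at -1.91. Elk3 in tumour 2, at 1.64, no longer stood above both others. The members differ in GC content, from 39.8% GC in the longest transcript of Etv1 and 42.4% in that of Ehf to 58.7% in that of Etv4 and 59.5% in that of Spdef. With trends of the differences with GC content and length removed, the differences of Etv4, Elf3 and Ehf were nearer to 0, at -1.56, -2.15 and 1.46, those of Etv1 and Elk3 were farther from it, at -1.77 and -3.19, and the calls of Etv4, Etv5, Elf3, Elf5, Ehf and Elk3 held.

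Per length, the order of the mean levels was Etv4 (284 ± 128 TPM, SD, n = 3), Elf3 (94.97 ± 54.2), Etv5 (79.6 ± 89.8), Elk3 (57.7 ± 39.2), Elf5 (32.0 ± 51.8), Ets2 (27.1 ± 24.98), Ehf (26.4 ± 34.0), Ets1 (10.9 ± 11.3), Etv1 (1.04 ± 0.690) and Spdef (0.452 ± 0.319). Etv4 was above Elf3, Ehf above Ets1, Ets1 above Etv1 and Etv1 above Spdef in 3 of 3 tumours. With median transcript lengths the order was Etv4, Etv5, Elk3, Ehf, Ets2, Elf3, Elf5, Ets1, Etv1 and Spdef, with Etv5 at 315 and Elf3 at 55.5 TPM. The neighbours from Elf3 down to Ehf did not keep their order in every tumour and do not differ beyond their spread. Within tumours the order was another: Etv5, at 183 TPM, Etv4 at 142 and Elf5 at 91.8 led in tumour 1, and Etv4 (319 and 390 TPM), Elf3 (106 and 143 TPM) and Elk3 (99.98 and 50.6 TPM) in tumours 2 and 3.

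Of the other 16 genes of the ETS family 12 passed the filter. In tumour 1, 4 of them stood above (Gabpa, Etv3, Etv6 and Elf1) and 4 below (Fli1, Elk1, Elk4 and Spi1), beside 22.1% and 20.7% of all genes. Without the GC and length trends 2 stood above, beside 19.2% of all genes. Etv6, a repressor, was at 157, 16.4 and 34.3 CPM. Elk1, the close relative of Elk3 and a classical Erk substrate, was at 16.9, 144 and 59.5 CPM, so that it too was lowest in tumour 1 and highest in tumour 2. Elk4, the third ternary complex factor, was at 37.7, 107 and 90.5 CPM. Erf, a repressor that Erk removes from the nucleus, was even on the TMM-scaled totals, at 96.8, 106 and 74.5 CPM. Per length it was highest in tumour 1, at 85.7, 39.5 and 34.4 TPM, so that its evenness depends on the scale. Fli1 and Spi1, factors of blood and endothelial lineages and of myeloid cells, were at 5.09, 42.6 and 23.5 CPM and at 15.2, 121 and 74.1 CPM. Fli1 is the neighbour of Ets1 on chromosome 9, 93.4 kb away, and stood below in tumour 1 where Ets1 stood above. Of the remaining genes past the filter, Gabpa was at 33.7, 6.96 and 15.7 CPM, Etv3 at 29.5, 12.6 and 6.23, Elf1 at 34.9, 4.47 and 6.04, Elf2 at 46.2, 27.2 and 26.4, Elf4 at 15.1, 25.7 and 13.0 and Erg at 3.70, 8.70 and 3.05 CPM. Etv2, Fev, Spib and Spic were under the filter, with at most 60 counts in a library. The 10 members together made up 65.0%, 70.1% and 76.8% of the summed per-length level of all 26 genes. That sum was 959, 813 and 846 TPM, highest in tumour 1, whereas the sum of the 26 on the TMM-scaled totals was 1195, 1844 and 1492 CPM, lowest in tumour 1. Etv5 ranked 1 of 26 in tumour 1 and 8 and 6 in the others, Elf5 ranked 3 and then 18 in both, and Elf3 ranked 8 and then 2 in both.

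Of 8 known regulators of the PEA3 factors, all past the filter, 2 stood above in tumour 1 (Atxn1 and Trib2) and 2 below (Ddb1 and Trib1), near the 22.1% and 20.7% of all genes. Their median difference was 0.35 against 0.11 for all genes. With library totals alone 4 stood above and 1 below, beside 40.4% and 10.5% of all genes. With DESeq2 size factors 1 stood above, beside 20.5% of all genes. Ddb1, the adaptor of Cul4 ubiquitin ligases, was at 509, 2356 and 1946 CPM. Atxn1, a partner of Cic, was at 37.1, 10.6 and 10.3 CPM, and Trib1, a pseudokinase that binds Cop1, at 77.3, 177 and 163 CPM. Cic itself was at 119, 68.7 and 58.8 CPM and Cop1, listed in the files by its older symbol Rfwd2, at 27.7, 17.6 and 22.0 CPM. Neither stood apart, and both were named after their values were seen.

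Upstream of the factors, 10 of 10 genes for Ras, Raf, Mek and Erk passed the filter, 2 standing above and 4 below in tumour 1, beside 22.1% and 20.7% of all genes. With library totals alone 3 stood above and 2 below, beside 40.4% and 10.5% of all genes. Hras was at 46.1, 277 and 230 CPM and Map2k2, which encodes Mek2, at 109, 460 and 407 CPM. Mapk3, which encodes Erk1, was at 372, 961 and 458 CPM. Of 14 genes known to follow Erk activity, 5 stood above and 2 below in tumour 1, beside 22.1% and 20.7% of all genes. Their median difference was 0.36. With library totals alone 7 stood above and 1 below, beside 40.4% and 10.5% of all genes. Dusp4, an Erk phosphatase, was at 69.8 CPM in tumour 1 and 4.85 and 4.83 in the others, in the direction of Etv5. Fosl1, an AP-1 subunit, was at 4.13, 58.5 and 34.4 CPM, in that of Etv4. Ccnd1 at 674, 1097 and 1227 CPM and Phlda1 at 346, 388 and 444 CPM passed the limit in no tumour. Of 14 genes reported elsewhere as targets of PEA3 factors, 13 passed the filter. Of these, 4 stood above and 4 below in tumour 1, beside 22.1% and 20.7% of all genes. Spp1, which encodes osteopontin, was at 4580, 602 and 716 CPM. The protease genes Mmp9 (13.3, 176 and 74.9 CPM) and Mmp14 (238, 905 and 483.5 CPM) and the urokinase receptor gene Plaur (18.6, 165 and 121 CPM) were lowest in tumour 1, as Etv4 was.

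Of the 10 genes of the Elf5 alveolar list, 6 passed the filter. In tumour 1, 3 of them stood above and none below, beside 22.1% and 20.7% of all genes. Csn3, which encodes kappa-casein, was at 437, 2.61 and 19.6 CPM and the progenitor receptor gene Kit at 184, 4.47 and 4.77 CPM, both highest in the tumour with high Elf5. The other milk protein genes of the list did not share 1 pattern. Csn1s1 had 325, 3 and 6 counts (4.70, 0.373 and 0.381 CPM) and did not pass the filter. Lalba passed it at 1.10, 3.23 and 0.890 CPM and stood above in tumour 2. Csn2 had 26 counts in tumour 1 and Wap and Csn1s2a had 2 each, and all 3 had 0 in tumours 2 and 3, where a limit of 3 counts allows up to 0.373 and 0.191 CPM. These 5 were named after their values were seen. Of 15 genes of epithelial identity, all past the filter, 4 stood above in tumour 1 and 1 below, beside the same 22.1% and 20.7%. Krt8 levels were 407, 734 and 1038 CPM, those of Krt18 461, 245 and 453 CPM, those of the claudin gene Cldn4 170, 10.7 and 20.1 CPM and those of the epithelial factor gene Grhl2 44.5, 2.98 and 7.25 CPM. With library totals alone 9 of the 15 stood above, beside 40.4% of all genes. Without the GC and length trends 8 did, beside 19.2% of all genes. Of 8 secretory genes linked to Spdef, 2 passed the filter, Creb3l1 (16.7, 51.5 and 26.8 CPM) and Muc1 (12.1, 33.2 and 23.9 CPM). Tff1 and Tff3 had 0 counts in all 3 libraries and were named after their values were seen.

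Markers of other cells moved with some members. Their counts for tumour 1 stand beside 22.1% above and 20.7% below over all genes. The basal epithelium markers had 6 of 7 above in tumour 1, and their summed level was 556, 56.7 and 61.2 CPM, with Krt5 at 64.4, 1.62 and 1.46, Krt14 at 107, 12.4 and 6.74 and Itgb4 at 288, 23.4 and 40.0 CPM. This is the direction of Elf5, Ehf and Etv5. Of 8 endothelial markers, 4 stood below in tumour 1 and 4 above in tumour 2, the latter beside 5.43% of all genes. The summed level was 221, 1897 and 702 CPM, in the order of Elk3, an order that other marker sums below shared. Pecam1 was at 56.4, 775 and 231 CPM and Egfl7 at 45.6, 627 and 242 CPM, whereas Tek, chosen after its values were seen, was even at 5.87, 6.46 and 5.59 CPM. Ets1, also an endothelial gene, did not follow them. Summed macrophage markers were at 444, 3110 and 1933 CPM, with 3 of 6 below in tumour 1 (C1qa at 161, 2426 and 1369 CPM). Fibroblast markers summed to 3129, 6045 and 3170 CPM, with 2 of 7 below in tumour 1. With library totals alone 1 of each list stood below, beside 10.5% of all genes. T cell markers summed to 15.8, 24.6 and 31.3 CPM, with Lck at 12.3, 11.9 and 22.3. Skeletal muscle markers summed to 4.55, 45240 and 19272 CPM. The macrophage, fibroblast and skeletal muscle sums thus had the order of Elk3 too, with the fibroblast sum nearly level between tumours 1 and 3. In bulk tissue, fewer cells of a type and less RNA per cell cannot be told apart. No marker of these lists was at 0 in any library. The part of these cells in the levels of the members was not tested.

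**Figure D4:**
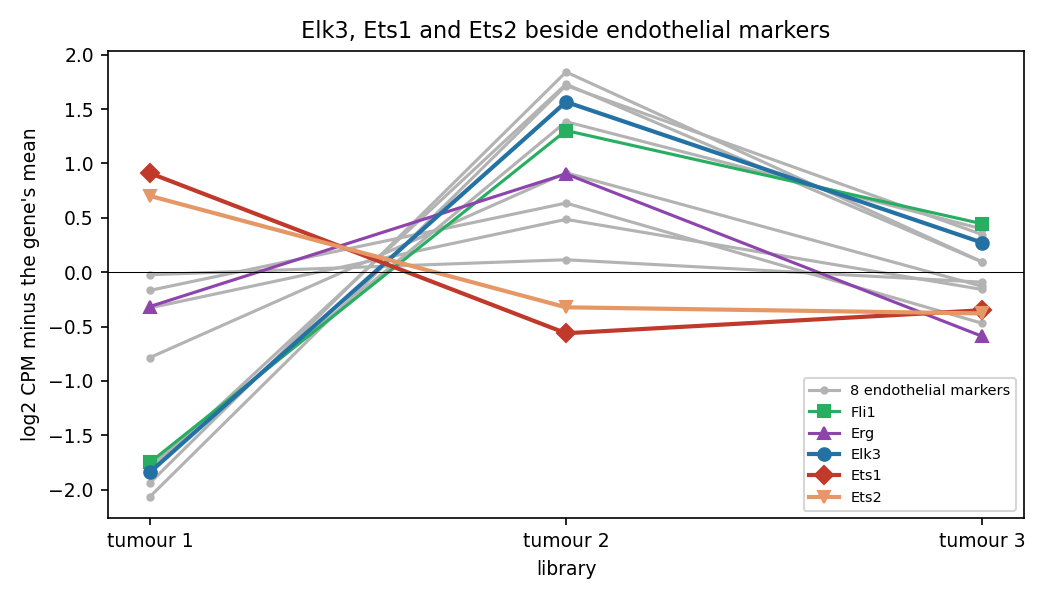
Log2 CPM minus the gene's mean over the 3 tumours (y axis) for Elk3, Ets1, Ets2, the ETS genes Fli1 and Erg and 8 endothelial markers (grey), with lines joining the points of 1 gene. Elk3 and Fli1 run with the markers that are lowest in tumour 1 and highest in tumour 2, while Ets1 and Ets2 are highest in tumour 1. Summed macrophage, fibroblast and skeletal muscle markers, not drawn, were also lowest in tumour 1 and highest in tumour 2.

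Genes beside the members on the chromosome were listed within 250 kb, and their counts stand beside 22.1% above and 20.7% below in tumour 1 over all genes. Around Elf5, 3 of 4 genes past the filter stood above in tumour 1, namely Ehf, the catalase gene Cat at 68.0, 18.6 and 30.1 CPM, 2.86 kb from Elf5, and Abtb2 at 27.2, 6.59 and 7.18 CPM. On the far side of Ehf, Pdhx was at 24.2, 7.58 and 16.0 CPM and Apip at 13.5, 14.5 and 16.5 CPM, and neither stood apart. None came near the 4.39 of Elf5 on the log2 scale, the highest after Ehf being Abtb2 at 1.97. Around Etv4, 5 of 9 neighbours stood below in tumour 1 and 1 above, with Dhx8, 2.38 kb away, at 27.6, 133 and 86.1 CPM and Nbr1 the one above. Beside Etv5, Tra2b stood above, at 139, 35.8 and 55.2 CPM, and Igf2bp2 did not stand apart. Around Elf3, 3 of 11 neighbours stood below and 1 above, around Elk3 2 of 5 stood below, and around Spdef 4 of 9 stood below. The neighbours were chosen by position, after the values of the members were seen.

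**Figure D5:**
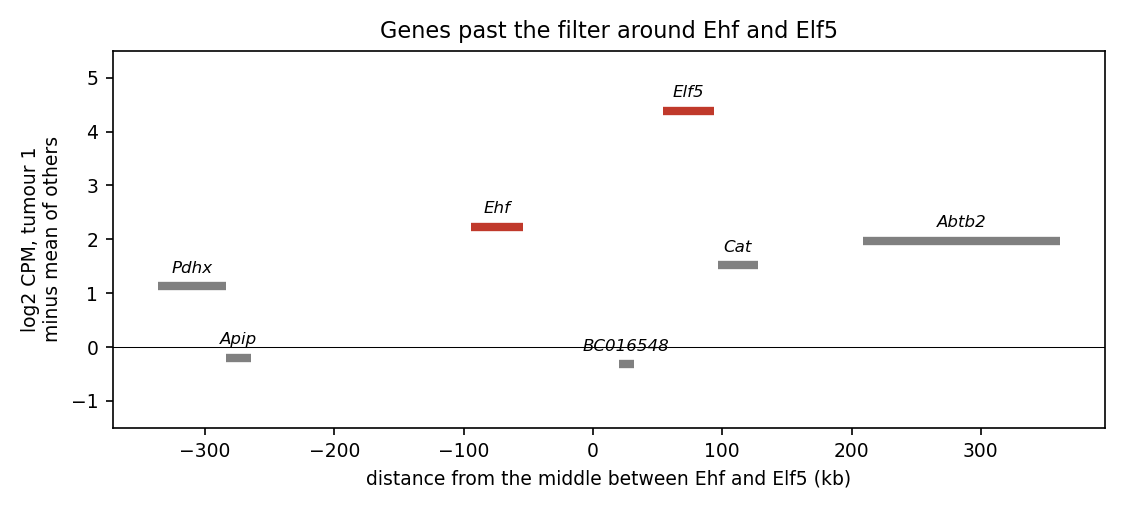
Log2 CPM of tumour 1 minus the mean of the others (y axis) for the genes past the filter around Ehf and Elf5, drawn as bars over their extent in kb from the middle between the 2 genes (x axis). Elf5 at 4.39 and Ehf at 2.23 lie highest, Abtb2, Cat and Pdhx above 1, and Apip and BC016548 near 0.

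The genes with the pattern most like that of the leading member of each group were found by the Euclidean distance of log2 CPM, less the gene's mean, over the 3 tumours. For Etv4 they were Fam173a (distance 0.0223), Lyar (0.0304) and Eva1c (0.0308), for Elf3 Ppp1r35 (0.0436), Klra2 (0.0567) and Pabpc1l (0.0946), and for Elk3 Jak3 (0.0118), Prrx2 (0.0309) and Pddc1 (0.0346). Within a distance of 0.1 lay 22 genes for Etv4, 3 for Elf3 and 17 for Elk3. Symbols of predicted, clone-based and antigen receptor genes were left out by name before this ranking and counting. Each pattern rests on 3 tumours only. Among the members, the closest pairs were Etv5 with Ets1 (0.250), Ets1 with Ets2 (0.318) and Etv4 with Elf3 (0.383).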

How the data were processed

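The values are estimated counts of reads by gene symbol, made with Salmon per the file headers and deposited by the authors without scaling for depth or length. Libraries were made with the Illumina TruSeq mRNA kit and read as pairs of 50 bases, per the labels' protocols. The submitters' processing notes also name STAR, Picard, SAMtools and build mm10. Not given in the sources used here are tool versions, annotation release and strand.

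Estimated counts were rounded, and genes were kept by filterByExpr of edgeR 4.0.16 (R 4.3.3; minimum count 10, minimum total 15). The totals of the 12710 genes kept were scaled with TMM factors of 1.48, 0.722 and 0.936. Log2 CPM used a prior count of 2. TPM and positions came from GENCODE M21 (GRCm38, also named mm10), which matched 45818 of 47480 symbols. With 1 group no conditions could be compared and no p-value was computed. The working of the 2-fold rule was checked on simulated counts with counting error alone and planted changes well past the limit. That check does not cover variation between tumours. Named genes are all members and other ETS genes past the filter, the 2 highest and 2 widest-ranging genes of each list, and the 3 genes nearest to each group's leading member, except 1 that is not reported here. The members and lists were chosen with earlier results of these data known. Alternatives were DESeq2 1.42.0 size factors, library totals, other filters and prior counts, thinning, removal of GC and length trends, other thresholds and lengths, and each tumour left out.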

Additional observations from a re-analysis of the deposited data

How the results depend on the processing

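No paired analysis was possible because the labels give 1 group. Of 119 differences of single members recomputed under the alternatives, 110 kept their direction and side of the 2-fold limit, 4 fell under it, 2 passed it and 3 reversed. The reversals were those of scarce genes: on the log2 scale the difference of Etv1 in tumour 1 ranged from -1.83 without tumour 2 to 0.035 without tumour 3, and that of Spdef from -0.92 without tumour 2 to 1.33 without tumour 3, with -0.087 from thinned counts. At 4-fold, 1 member (Elf5) stood above and 3 (Etv4, Elf3 and Elk3) below in tumour 1. None stood above in tumour 2 or tumour 3 (0 and 0), and none below. The share of all genes at 4-fold was not computed. With library totals alone, 0 members stood above and 1 below in tumour 2, and without a filter 1 stood below there. With 1 tumour left out, the limit applies to 1 other tumour only and is looser, and a member above in 1 tumour is below in the other. The counts above and below then ranged from 5 to 5 and from 3 to 4 in tumour 1, from 1 to 3 and from 1 to 5 in tumour 2, and from 1 to 4 and from 1 to 5 in tumour 3. For tumour 1 the shares of all genes above and below were 25.9% and 23.6% without tumour 2. Without tumour 3 they were 31.6% and 27.7%. For tumours 2 and 3 the shares of all genes were not computed with a tumour left out, with library totals alone or without a filter. The counts of members there thus have no background beside them. The median SD of the members ranged from 0.21 without tumour 1 to 1.71 without tumour 3. With median transcript lengths the mean level of Etv4 was 536 TPM. The cause was not tested. Depth limits Spdef and Etv1 most, and 3 counts correspond to 0.373 CPM in tumour 2.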
